A study of Sus scrofa with 12 samples.

Results

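The genes described here are 32 genes of the contractile apparatus of smooth muscle, measured in jejunal mucosa of pigs. They were chosen by name for their roles: 12 in the contractile filaments, 9 in intermediate filaments and the links between filaments and membrane, 4 ion channels, 2 integrins and 5 transcription factors. Of the 32, 30 had a probe set with their symbol in the platform annotation, out of 13664 genes so named. CNN1 and CSRP1 had none by symbol and were not analysed here. On these arrays several short probes together, a probe set, read 1 transcript or a stretch of it, and each gene was read from its probe set of the highest mean over the 12 arrays. The 30 genes had 81 probe sets in all, and for MEF2A all 7 are given. MEF2C, at a mean of 1.67 log2 units, lay below the filter of 2.29 and below 1.90, the highest mean of 12 negative control probe sets, so 29 members were tested, of 12579 genes.

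Smooth muscle lies in several layers of the gut wall: the thick outer muscle coat, the thin muscularis mucosae at the base of the mucosa, strands that run up the core of each villus, and the walls of blood vessels. It contracts when calcium, entering through voltage-gated channels or released from internal stores, activates myosin light chain kinase, which lets myosin pull on thin filaments of actin, tropomyosin and caldesmon. Serum response factor, with its partner myocardin, switches on many of the contractile genes together, and the MEF2 factors act beside it. A mucosal sample always holds some of this muscle, and how much depends on the mucosa and on where the tissue was parted from the wall.

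Arrays were run on 6 pigs of high and 6 of low feed efficiency, a trait that sets growth against feed intake. Each class held 3 males and 3 females, all 140 days old, with 1 array for each pig and no pooling stated. The sources used here do not give the breed, the diet, the way feed efficiency was scored, the line between mucosa and muscle at sampling or any array batch. No treatment or genetic change is named, so the 2 classes differed by label in feed efficiency only. Replicates are separate pigs, and their numbers tie no pig of one class to a pig of the other.

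Array medians lay between 4.02 and 4.16 log2 units. The tissue label was checked against marker genes: the 10 measured enterocyte genes, which mark the absorptive cells of the villus, averaged 8.74 to 10.67 over the high pigs and 9.99 to 10.999 over the low pigs. High replicate 1 stood apart before any result: it had the lowest enterocyte mean, 8.74, the highest goblet cell and fibroblast means, 11.34 and 9.41, and the lowest array weight, 0.402 against 0.698 to 1.64 in the other 11 pigs. Low replicate 6 had the next lowest enterocyte mean, 9.99, against 10.33 to 10.999 in the remaining pigs. The 10 measured skeletal muscle genes averaged 4.31 to 4.98 and the 7 measured cardiac genes 4.83 to 5.32 over all pigs. In bulk tissue, fewer muscle cells and less of a transcript in each cell cannot be told apart.

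The muscle genes were all well above the floor apart from MEF2C, with means from 4.49 log2 units for MYOCD to 11.18 for ACTG2. They varied more from pig to pig than most genes did. The median SD over the 12 pigs was 0.402 log2 units for the 29 members and 0.282 for all 12579 genes. The median distance from the lowest to the highest pig was 1.27 log2 units for the members and 0.945 for all genes, and it was at least 1 log2 unit, a doubling of signal, for 21 of the 29. VCL, which encodes vinculin, a protein that ties actin to the membrane, had the narrowest range, 0.387 log2 units. ITGA7, a laminin-binding integrin of muscle, had the widest, 4.36 log2 units, from 2.39 in high replicate 5, close to the floor, to 6.75.

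**Figure D1:**
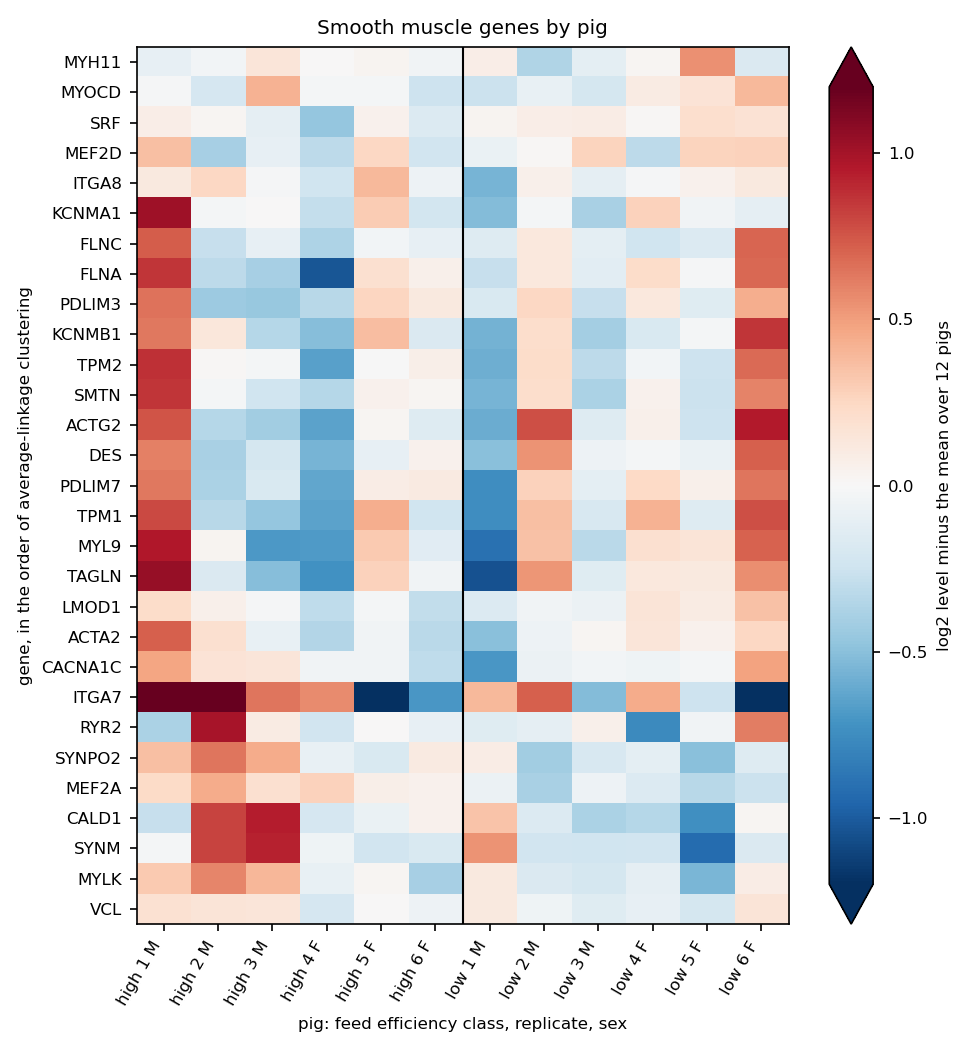
The 29 tested members by pig, as the log2 level minus that member's mean over the 12 pigs, in colour. Columns are pigs by feed efficiency class, replicate and sex (M male, F female), parted by a line between the classes; rows are in the order of average-linkage clustering on the correlations, and the colour scale ends at 1.2 log2 units on either side. A block from FLNC to TAGLN is red in high replicate 1 and low replicate 6, and a second block of CALD1, SYNM, MYLK and SYNPO2 is red in high replicates 2 and 3.

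ACTG2 and DES had the same 3 pigs on top. ACTG2, the gamma actin of gut smooth muscle, ran from 10.53 through a median of 10.93 to 11.93 in the 6 high pigs and from 10.58 through 11.13 to 12.13 in the 6 low pigs. Low replicate 6 was highest, followed by low replicate 2 at 11.95 and high replicate 1 at 11.93. These 3 pigs lay apart from the other 9 by a gap of 0.694 log2 units, the widest in the series of ACTG2 values, and the classes overlapped. DES, the desmin of the intermediate filaments, ran from 8.45 through 8.85 to 9.60 in high pigs and from 8.50 through 8.96 to 9.72 in low pigs. TAGLN, the actin-binding protein transgelin, ran from 9.40 through 10.02 to 11.18 in high pigs and from 9.09 through 10.25 to 10.69 in low pigs. Its lowest and highest pigs differed 4.25-fold, against 3.02-fold for ACTG2 and 2.41-fold for DES.

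Over all members, high replicate 1 was the highest of the 12 pigs for 13 of 29 genes and among the 2 highest for 18. Low replicate 6 was the highest for 6 and among the 2 highest for 19. At the other end, low replicate 1 was the lowest pig for 11 members and high replicate 4 for 7. The pig most often highest and the pig most often lowest were both males, 1 of each class.

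MYH11, the heavy chain of smooth muscle myosin, had been taken as the gene to measure the others by. It did not follow them. Its single probe set has no second one to check it by, and that it reads MYH11 rests on the platform annotation alone. It ran from 4.86 through 4.94 to 5.10 in high pigs and from 4.59 through 4.91 to 5.51 in low pigs. Its highest pig was low replicate 5 and its lowest low replicate 2, and the classes overlapped. Pearson's r of the other 28 members with MYH11 had a median of -0.22 and ran from -0.56 for ACTG2 to 0.25 for MYOCD, with 3 of 28 above 0. None reached 0.7, against a background of 0.167% of all genes, and none passed a permutation test with 100000 resamples (smallest Benjamini-Hochberg adjusted p 0.812 over 28 genes). Before adjustment no Pearson's r had a p under 0.05, and 2 Spearman's rho did, those of ACTG2 (-0.64) and DES (-0.65), both negative (adjusted p 0.38 for both). Without low replicates 2 and 5, the 2 pigs farthest from the MYH11 median, the median r was -0.50. Within the 6 high and the 6 low pigs the medians were -0.34 and -0.30.

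ACTG2, the member of the highest mean, was used as a second reference, chosen after the data were seen. Of the 28 other members 11 had an r of at least 0.7, which is 39.3%, against a background of 5.07% of all genes. By permutation 13 of the 28 passed for Pearson's r and 11 for Spearman's rho, after Benjamini-Hochberg adjustment over the 28. DES followed ACTG2 most closely, at r 0.974 and rho 0.930 (permutation p 1e-05, the smallest the test can give, adjusted p 0.00014). Next came TPM1, an alpha tropomyosin that lies along the thin filament, at r 0.914 and rho 0.902 (adjusted p 0.00014 and 0.000793). PDLIM7, a linker of actin to signalling proteins, had r 0.904 and rho 0.965, and TAGLN r 0.893 and rho 0.944. The other filament genes were SMTN, smoothelin of contractile smooth muscle, at 0.884, TPM2, a beta tropomyosin, at 0.877, and MYL9, the regulatory light chain that the kinase phosphorylates, at 0.871. FLNC and FLNA, filamins that cross-link actin, had r of 0.864 and 0.850, PDLIM3, a linker of the dense bodies, 0.855, and KCNMB1, the beta subunit that tunes the calcium-activated potassium channel in smooth muscle, 0.850. These 11 are the members that passed for both measures, with rho from 0.741 for FLNC to 0.965 for PDLIM7. ACTA2, the alpha actin of vascular and other smooth muscle, and LMOD1, leiomodin that starts actin filaments, passed for Pearson's r at 0.659 and 0.668 (adjusted p 0.0400 for both) but not for Spearman's rho (adjusted p 0.0777 and 0.0967).

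With pigs of high ACTG2 left out, part of the pattern held. Without low replicates 2 and 6, the 2 pigs farthest from the ACTG2 median, 13 members had an r of at least 0.7 and the median went from 0.571 to 0.632. Over the 9 pigs below the gap, 9 members reached 0.7 and 6 passed the permutation test (smallest adjusted p 0.00539): TPM1 at 0.945, PDLIM7 at 0.918, TAGLN at 0.908, FLNA at 0.874, DES at 0.870 and MYL9 at 0.838. FLNC and KCNMB1, at 0.864 and 0.850 over 12 pigs, had 0.487 and 0.632 over these 9 and did not pass. Within classes the median r with ACTG2 was 0.759 over the 6 high pigs and 0.619 over the 6 low pigs. Measured against DES in place of ACTG2, 11 members had an r of at least 0.7 (background 4.83%) and 11 passed. Without high replicate 1 and low replicate 6, the 2 pigs farthest from the DES median, 8 reached 0.7 and the median r went from 0.590 to 0.349.

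Across all 406 pairs of the 29 members the median r was 0.341, and 105 pairs, 25.9%, had an r of at least 0.7, against 2.49% of all pairs of genes. Without high replicate 1 and low replicate 6 the count was 69, or 17.0%, and the median r was 0.165. By permutation 111 of the 406 pairs passed for Pearson's r and 66 for both measures, adjusted over the 406, and the adjusted p of member pairs that follow are on that basis. Most pairs named were picked for their high r. The closest pair after ACTG2 and DES was MYL9 and TAGLN, at r 0.971 and rho 0.972 (adjusted p 0.000812 for both), and 0.950 without the 2 pigs farthest from the MYL9 median. TPM2 and SMTN had r 0.963 and rho 0.888 (adjusted p 0.00101 and 0.00436), and 0.886 without 2 pigs. PDLIM7 and TAGLN had r 0.941 and rho 0.951, TPM1 and MYL9 0.937 and 0.944, and KCNMB1 and MYL9 0.921 and 0.916, with adjusted p of 0.00312 or less in each case. FLNC and TPM2 went from r 0.886 (rho 0.776) to 0.616 when high replicate 1 and low replicate 6 were left out. All pairs were read on the same 12 arrays, and genes are not independent replicates.

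**Figure D2:**
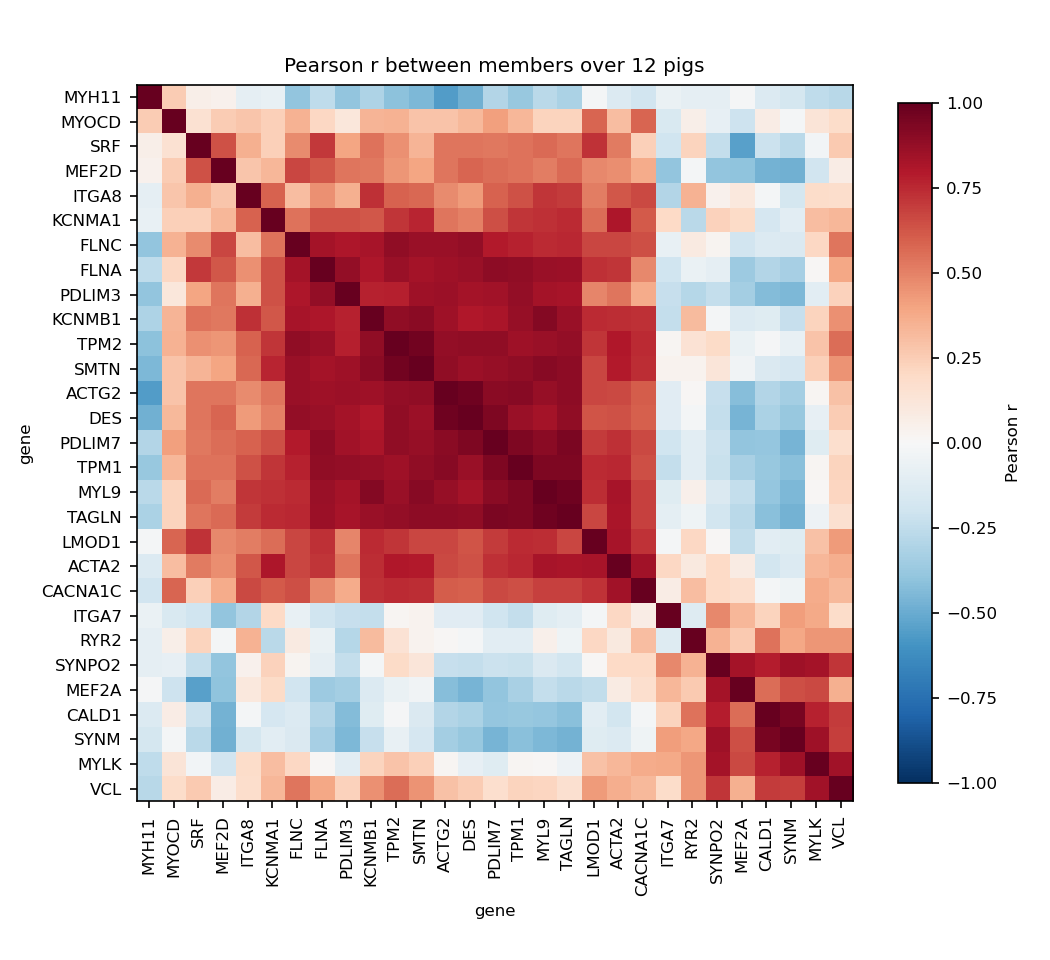
Pearson's r over the 12 pigs for every pair of the 29 tested members, from -1 (blue) to 1 (red), in the order of average-linkage clustering. The large red square holds 12 genes around ACTG2 and DES, the small one at the lower right holds SYNPO2, MEF2A, CALD1, SYNM, MYLK and VCL, and MYH11 is pale or blue against nearly all others.

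A smaller set followed another order of pigs. CALD1, the caldesmon that holds back myosin on the thin filament, ran from 7.48 through 7.74 to 8.69 in high pigs and from 7.02 through 7.50 to 8.10 in low pigs. High replicate 3 at 8.69 and high replicate 2 at 8.57 were above all others, low replicate 5 at 7.02 was below, and the classes overlapped. SYNM, the intermediate filament protein synemin, which pairs with desmin, ran from 6.87 through 7.06 to 8.02 in high pigs and from 6.18 through 6.87 to 7.64 in low pigs, with the same 2 pigs on top. CALD1 and SYNM had r 0.946 and rho 0.797 (adjusted p 0.00185 and 0.0251), and 0.851 without high replicates 2 and 3. Within the high and the low pigs the r of this pair was 0.942 and 0.938.

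SYNPO2, an actin-bundling protein also called myopodin, and MYLK, the myosin light chain kinase, lay in the same set. SYNM and SYNPO2 had r 0.845 and rho 0.902, and MYLK and SYNM 0.850 and 0.888 (adjusted p 0.00529 or less in each). MYLK and VCL had 0.836 and 0.846 (adjusted p 0.00513 and 0.00927), and MEF2A and SYNPO2 0.832 and 0.762 (adjusted p 0.00668 and 0.0375). Without the 2 farthest pigs of each pair these 4 values of r were 0.665, 0.687, 0.786 and 0.696. Taken against CALD1, a reference also chosen after the data were seen, 4 of 28 members had an r of at least 0.7 (background 2.78%) and 3 passed for Pearson's r and 0 for Spearman's rho. Without high replicates 2 and 3 the count at 0.7 was 1. ACTG2 and CALD1 had an r of -0.29 (rho -0.26, adjusted p 0.574 and 0.610), and DES and SYNM one of -0.38 (rho -0.38, adjusted p 0.422 for both).

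**Figure D3:**
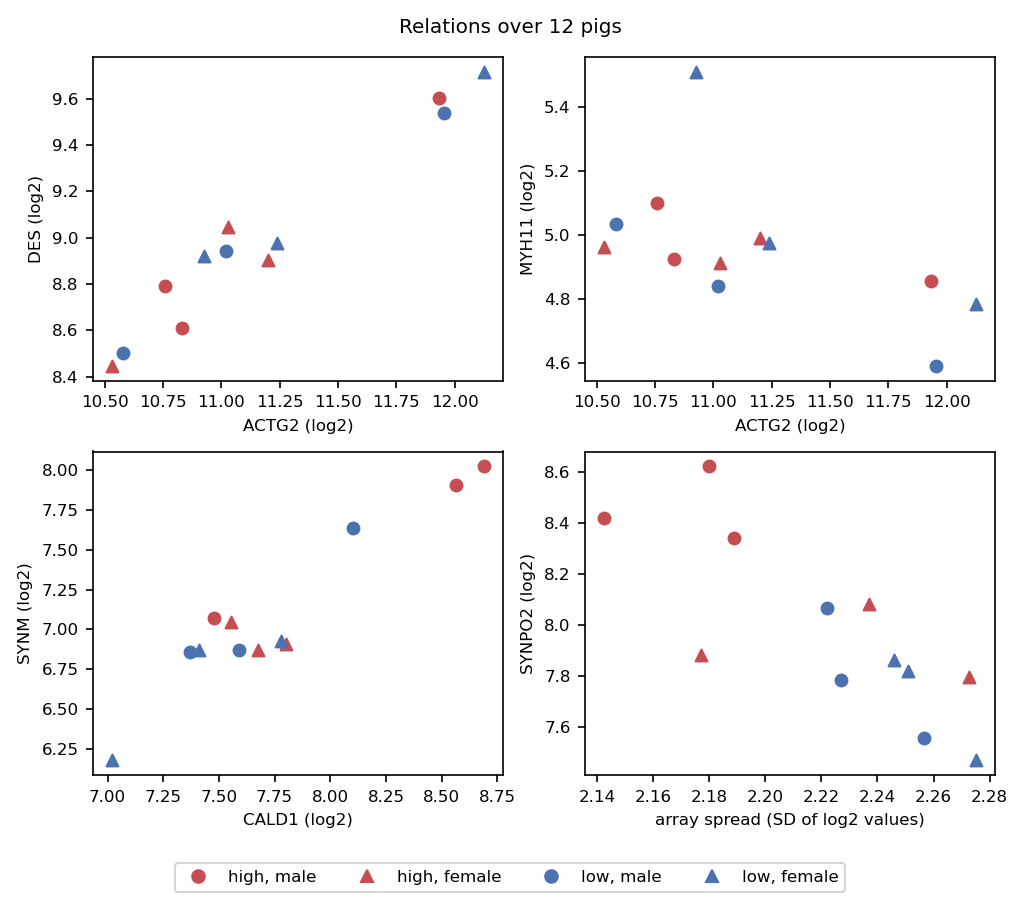
Log2 levels of 4 pairs of measures over the 12 pigs: DES and MYH11 against ACTG2, SYNM against CALD1, and SYNPO2 against the SD of all log2 values of the array. Red marks high and blue low feed efficiency, circles males and triangles females. DES rises with ACTG2 at r 0.974, with 3 pigs apart at the upper right; MYH11 has -0.56; SYNM rises with CALD1 at 0.946; SYNPO2 has -0.80 with the array spread.

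Of the second set, SYNPO2, SYNM and MEF2A moved with a property of the whole array. The SD of all log2 values within an array was 2.20 ± 0.0469 (SD, n = 6) for high pigs and 2.25 ± 0.0196 for low pigs. SYNPO2 had r -0.80 and rho -0.81 with it, SYNM -0.78 and -0.80, and MEF2A -0.77 and -0.76 (adjusted p 0.0327 for each r, and 0.0422, 0.0422 and 0.0554 for rho, over 29 members). These 3 members had an r of -0.7 or lower, as had 3.79% of all genes. Without high replicates 3 and 4 the 3 values were -0.91, -0.76 and -0.78. Within the high class they were -0.65, -0.75 and -0.63, and within the low class -0.86, -0.84 and -0.88. MYLK, CALD1 and VCL had -0.68, -0.66 and -0.41 and did not pass (adjusted p 0.103, 0.114 and 0.416). ACTG2 had 0.366 (adjusted p 0.442). The part of array spread in the second set was not tested beyond the covariate fit given with the feed efficiency values.

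Among the ion channels, integrins and transcription factors, KCNMB1 had 15 partners at an r of 0.7 or above among the members and MEF2A had 1. ACTA2 had its closest partners in CACNA1C, the pore of the L-type calcium channel that admits calcium, at r 0.843 and rho 0.769 (adjusted p 0.00712 and 0.0354), and in LMOD1, at 0.826 and 0.888 (adjusted p 0.00668 and 0.00436). ACTA2 and KCNMA1, the pore of the calcium-activated potassium channel that relaxes muscle, had 0.811, but 0.375 without high replicate 1 and low replicate 1, and rho of 0.524 did not pass (adjusted p 0.231). KCNMA1 and its beta subunit KCNMB1 had r 0.624 and rho 0.615 (adjusted p 0.0817 and 0.133), and 0.371 without the same 2 pigs. RYR2, a calcium release channel of the internal store, ITGA7, MYOCD, MEF2D and MYH11 had no partner at 0.7 among the members. ITGA7 and ITGA8, an integrin of smooth muscle and stromal cells, had r -0.30 and rho 0.014 (adjusted p 0.554 and 0.979).

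SRF, the serum response factor, had r 0.539 with TAGLN and 0.726 with LMOD1, its closest partner (adjusted p 0.186 and 0.0245), with rho of 0.559 and 0.545 (adjusted p 0.190 and 0.205), and the r with LMOD1 went to 0.443 without high replicates 4 and 6. MYOCD, the myocardin that joins SRF on contractile genes, had 0.156 with SRF, 0.251 with MYH11 and 0.312 with ACTA2, with adjusted p of 0.777, 0.634 and 0.533 (rho 0.231, 0.238 and 0.462). Its values ran from 4.23 to 4.91, a range of 0.677 log2 units. MEF2A and MEF2D, both MADS-box factors of muscle and other cells, had -0.40 (rho -0.34, adjusted p 0.385 and 0.470).

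Other genes of muscle and of other cell types were then set beside ACTG2, from 19 lists holding 177 measured genes in 178 entries, since KCNJ8 is in 2 lists. Of the 178, 20 passed with a positive and 3 with a negative r by permutation, adjusted over the 178. The same test was not run over all genes. Among 26 measured partners of the filaments the median r was 0.568 and 7 reached 0.7. The background for this and the other lists was 5.07% of all genes at 0.7 or above. HSPB6, a small heat shock protein of smooth muscle that takes part in relaxation, had r 0.906 and rho 0.895 (adjusted p 0.00331 and 0.0089), MYH10, a non-muscle myosin, 0.884 and 0.895, and ACTN1, the actinin of dense bodies, 0.794 and 0.692 (adjusted p 0.0261 and 0.0844). From another list PPP1R14A, the inhibitor of myosin phosphatase known as CPI-17, had 0.768 and 0.818 (adjusted p 0.0308 and 0.0262). Among 19 adhesion and dystrophin complex genes 4 reached 0.7: PARVA at 0.860, DAG1 at 0.854, LIMS2 at 0.824 and ITGA5 at 0.821, all passing for r and all but ITGA5 for rho (adjusted p 0.0540). ACTC1 and ACTA1, the cardiac and skeletal alpha actins, had 0.897 and 0.875, while the median over all 7 cardiac genes was 0.083 and over all 10 skeletal genes 0.261. Near-identical actins may share probes, so the actin probe sets are uncertain as separate genes.

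Genes of the epithelium moved with ACTG2 in both directions. Of 10 measured enterocyte genes 3 had an r of -0.7 or lower and the median was -0.59. Over all genes the median r with ACTG2 was 0.0896 and 5.07% reached 0.7, while the share at -0.7 or lower was not counted. VIL1, the villin of the brush border, had r -0.84 and rho -0.92 (adjusted p 0.00331 and 0.00534), and -0.94 without low replicates 2 and 6. LCT, lactase, and SLC15A1, a peptide transporter, had -0.72 each (adjusted p 0.0433 and 0.0341), but rho of -0.69 and -0.48 did not pass. The 5 measured goblet cell genes had a median of 0.675 with 1 at or above 0.7, AGR2, a chaperone of mucin folding, at 0.856 (adjusted p 0.0165, and 0.0734 for its rho of 0.713). OLFM4 and MKI67, markers of crypt and dividing cells, had 0.870 and 0.860 (adjusted p 0.00331 for both), and PECAM1 of endothelium 0.859 (adjusted p 0.00475), all 3 passing for rho as well. These were picked for their r: over all 5 crypt genes the median was 0.120 with 2 at 0.7 or above, and over all 7 endothelial genes 0.160 with 1. The median r was 0.485 for 9 fibroblast genes, 0.383 for 6 enteric neuron genes, 0.219 for 4 glial genes and -0.32 for 4 genes of interstitial cells of Cajal. For the 6 vascular mural cell, 4 leukocyte and 2 mesothelial genes it was 0.204, 0.196 and 0.147. It was 0.275 for the adhesion genes, 0.258 for 13 genes of calcium entry, release and uptake, 0.104 for 17 partners of SRF and MYOCD and 0.097 for 13 genes of relaxation and second messengers. The part of these cell types in the shared order of pigs was not tested.

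Over all 12579 genes, those most like ACTG2 outside the members were ARID5A at 0.946, HVCN1 at 0.924 and TIMP1 at 0.919, and the least like it were CNOT4 at -0.95 and BAG4 at -0.93. Those most like MYH11 were KIAA1958 at 0.836, CLDN9 at 0.824 and PADI1 at 0.809, with UGGT1 lowest at -0.92. No member of the set was among the 12 genes most like MYH11, where BTNL9 and EPSTI1 closed the list at 0.743 and 0.731.

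Feed efficiency was then compared with limma, with sex as an additive term. None of the 29 muscle genes passed, against a background of 0.0% of 35791 probe sets, and the smallest adjusted p among the members was 0.600, for MEF2A. At an unadjusted p under 0.05 there were 2 members, MEF2A and SYNPO2, both higher in high pigs, which is 6.9% of the 29 against a background of 7.79%, or 3.81% for genes higher in high pigs. In direction 16 members were higher and 13 lower in high pigs, with a median difference of 0.034 log2 units, against -0.033 over all genes, of which 42.8% were higher. The count of members higher in high pigs was 12 without high replicate 1 and 22 without high replicate 4. The median standard error was 0.210 log2 units for the members.

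Among the filament genes ACTG2 averaged 11.05 ± 0.490 (SD, n = 6) in high and 11.31 ± 0.608 in low pigs, a difference of -0.26 (SE 0.2995). DES differed by -0.20 (SE 0.237), TPM1 by -0.15 (SE 0.296), MYL9 by -0.06 (SE 0.317) and TAGLN by -0.05 (SE 0.327). MYH11 averaged 4.96 in both classes, but its SD was 0.0825 in high and 0.313 in low pigs, which held both its lowest and its highest pig. For each of these genes the classes overlapped and the difference was smaller than the larger SD.

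SYNPO2 ran from 7.80 through 8.21 to 8.62 in high pigs and from 7.47 through 7.80 to 8.07 in low pigs, with 4 high pigs above every low pig. The class means were 8.19 ± 0.323 and 7.76 ± 0.216, and differed by 0.43 (SE 0.139, limma adjusted p 0.621), which is 1.35-fold. CALD1 differed by 0.42 (SE 0.221, limma adjusted p 0.674), SYNM by 0.41 (SE 0.209, limma adjusted p 0.656) and MYLK by 0.28 (SE 0.151, limma adjusted p 0.677). With the array spread as a covariate these 4 differences were 0.26 for SYNPO2, 0.19 for CALD1, 0.08 for SYNM and 0.14 for MYLK. In that fit 24 of 29 members were higher in high pigs and 5 lower, with a median of 0.144, and 1 had an unadjusted p under 0.05. The shares over all genes were not counted for that fit, so these counts have no background to be set against. SRF, lower in high pigs, ran from 6.99 through 7.41 to 7.53 in them and from 7.47 through 7.54 to 7.65 in low pigs, and differed by -0.19 (SE 0.113, limma adjusted p 0.695), or by -0.05 with the covariate.

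**Figure D4:**
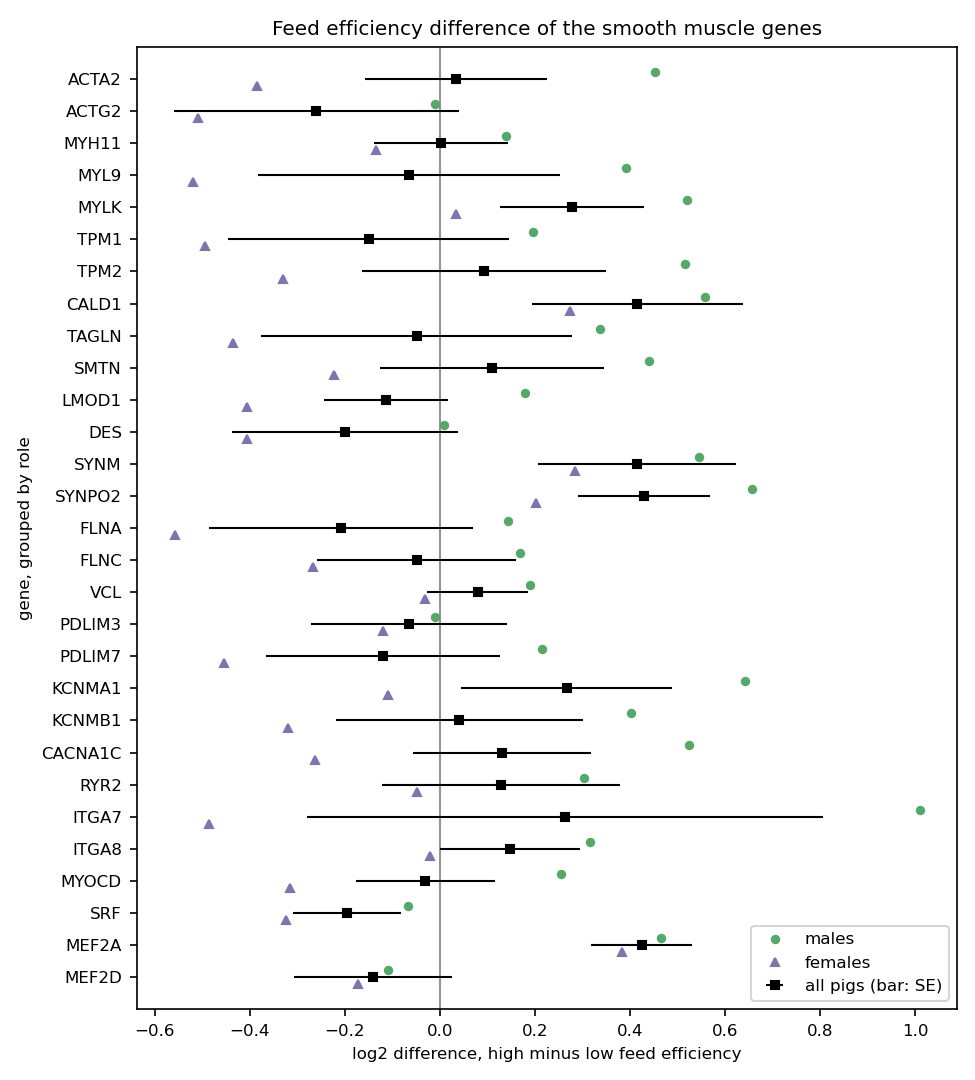
Difference of each tested member between high and low feed efficiency (high minus low, log2), by role from filament genes at the top to transcription factors at the bottom. Squares are limma estimates over 12 pigs with bars of 1 standard error, circles the difference within males and triangles within females. For every gene the male value lies to the right of the female value, and the squares range from -0.26 for ACTG2 to 0.43 for SYNPO2.

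MEF2A, a factor that turns on muscle genes but is present in many cell types, was the member with no overlap between the classes. Its main probe set ran from 6.53 through 6.70 to 6.93 in high pigs and from 6.09 through 6.28 to 6.42 in low pigs, so that all 6 high pigs lay above all 6 low pigs. Such a separation with high pigs above was seen in 0.170% of all probe sets, and the gene was included with this result known. The means were 6.70 ± 0.146 and 6.27 ± 0.137, and differed by 0.42 (SE 0.106, limma adjusted p 0.600), which is 1.34-fold. It was 0.46 in males and 0.38 in females, 0.37 to 0.45 with any single pig left out, and 0.31 with array spread as a covariate.

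The other probe sets of MEF2A did not repeat it. Of the 6 above the filter 4 were higher and 2 lower in high pigs. In order of mean level the other 5 differed by 0.12 (SE 0.100), -0.29 (SE 0.189), 0.17 (SE 0.193), 0.03 (SE 0.179) and -0.33 (SE 0.209). The classes overlapped in all 5. Their r with the main probe set over the 12 pigs was 0.466, -0.54, 0.0923, 0.0619 and -0.35 in the same order. The mean over the 6 MEF2A probe sets above the filter differed by 0.020. The seventh lay below the filter, at 1.82. Which part of the transcript each probe set reads was not analysed here.

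**Figure D5:**
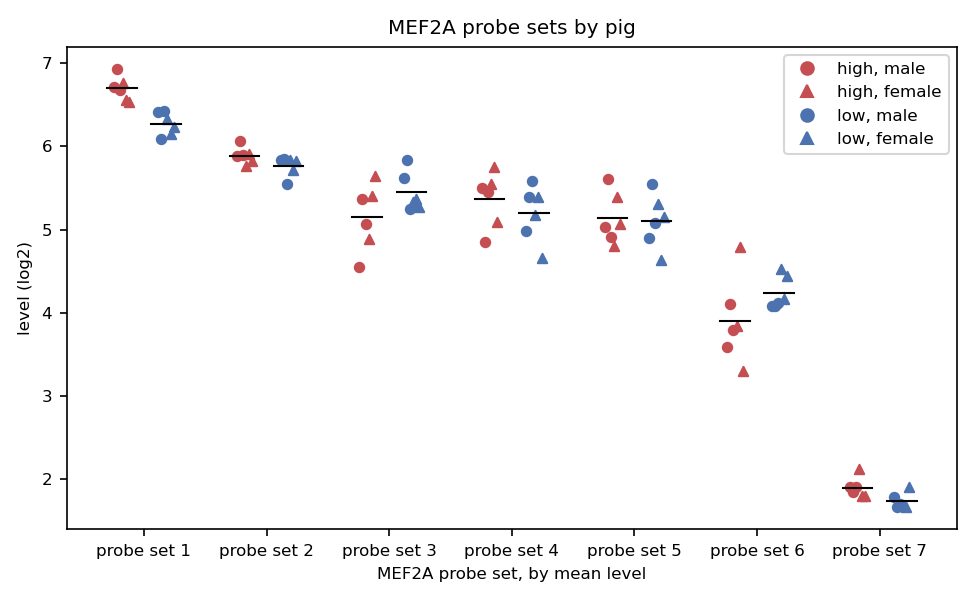
Log2 level of the 7 MEF2A probe sets in each pig, ordered by mean level. Red marks high and blue low feed efficiency, circles males and triangles females, and lines the class means. Probe set 1 has all high pigs at 6.53 to 6.93 and all low pigs at 6.09 to 6.42; in the others the classes overlap, and probe set 7 lies near the floor.

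RYR2 had the reverse case, seen after the values were examined. Its main probe set did not separate the classes, at 5.32 ± 0.485 in high and 5.20 ± 0.441 in low pigs, 0.13 apart (SE 0.251). Its second probe set ran from 5.26 through 5.40 to 5.67 in high pigs and from 4.65 through 4.93 to 5.06 in low pigs, with no overlap, and differed by 0.51 (SE 0.097, limma adjusted p 0.526). The next ran from 4.68 through 4.79 to 5.22 and from 4.35 through 4.48 to 4.63, again with no overlap, and differed by 0.36 (SE 0.112, limma adjusted p 0.621). The last above the filter differed by 0.23 (SE 0.159) with overlap. None of the 4 passed. Those with no overlap had r of 0.228 and 0.265 with the main one. Over all 72 tested probe sets of the members 43 were higher in high pigs. An unadjusted p under 0.05 was seen in 6, or 8.33%, against a background of 7.79%. Among them, probe sets of KCNMA1 went opposite ways, at -1.26 (SE 0.510) and 0.29 (SE 0.128). No overlap was seen in 3, or 4.17%, all with high pigs above, against a background of 0.170%; the 3 are probe sets of MEF2A and RYR2, singled out with their values known.

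How far a gene's probe sets followed each other varied widely. For 19 members with several tested probe sets, the 43 others had a median r of 0.434 with the main one, 13 of them at 0.7 or above and 8 below 0. For the closest, ACTA2 had 0.933, PDLIM7 0.923, SMTN 0.917, KCNMB1 0.886 and DES 0.880. SRF had 0.098 and -0.17 for its others and MYOCD -0.095, and those of KCNMA1 ran from -0.18 to 0.806. The r of SRF and MYOCD with other members thus rest on main probe sets that their others did not follow. ACTG2, MYH11, CALD1, TAGLN, LMOD1, FLNA, FLNC, SYNPO2, PDLIM3 and ITGA7 had 1 tested probe set each and have no such check.

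Between males and females none of the members passed, against a background of 0.0168% of probe sets, and 4 had an unadjusted p under 0.05, which is 13.8% of the 29 against a background of 9.26%. All 4 were higher in males, where the background was 4.60%. ITGA7 averaged 5.80 ± 0.759 (SD, n = 6) in males and 4.39 ± 1.26 in females, and differed by 1.40 (SE 0.543, limma adjusted p 0.501). SYNM differed by 0.59 (SE 0.209, limma adjusted p 0.488), MYLK by 0.34 (SE 0.151) and SYNPO2 by 0.31 (SE 0.139). In the same order these 4 genes had r of -0.63, -0.78, -0.68 and -0.80 with the array spread (permutation adjusted p 0.127, 0.0327, 0.103 and 0.0327). The spread ran from 2.14 to 2.26 in males and from 2.18 to 2.28 in females. Its part in the sex differences was not tested. Over all 29 members the median difference was 0.0050, with 16 higher and 13 lower in males. Over all genes the median was -0.014 and 47.2% were higher in males. With array weights 1 of the members had an unadjusted p under 0.05.

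The feed efficiency difference pointed the other way in males and females for most members. Within males 25 of 29 were higher in high pigs, with a median of 0.317, against 48.4% of all genes and a median of -0.01. Of these, 5 had an unadjusted p under 0.05, against a background of 3.93% higher at that p (0.0% adjusted). Within females 5 of 29 were higher and 24 lower, with a median of -0.27, against 42.0% of all genes higher and a median of -0.05. Here 1 member in each direction had an unadjusted p under 0.05 (MEF2A higher, LMOD1 lower), against backgrounds of 2.79% higher and 2.65% lower. The difference of the differences was positive for all 29 members, against 53.9% of all genes, with a median of 0.499 against 0.041. None passed for this interaction, against a background of 0.0%, and the smallest adjusted p among the members was 0.743. With no adjustment 4 had a p under 0.05, which is 13.8% against a background of 6.69%, or 3.12% for positive interactions. Many members move together from pig to pig, so their common sign is not 29 separate observations.

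The 4 were LMOD1, ACTA2, CACNA1C and MYOCD. LMOD1 differed by 0.18 (SE 0.147) in males and -0.41 (SE 0.147) in females, an interaction of 0.59 (SE 0.207, limma adjusted p 0.743). ACTA2 differed by 0.45 (SE 0.219) in males and -0.39 (SE 0.219) in females, an interaction of 0.84 (SE 0.310, limma adjusted p 0.743). For CACNA1C the interaction was 0.79 (SE 0.311) and for MYOCD 0.57 (SE 0.253). For each pig the median of the 29 log2 levels, not centred by gene, was also taken. It was 7.48, 7.01 and 7.03 in the high males and 6.51, 6.99 and 6.64 in the low males. It was 6.76, 7.003 and 6.81 in the high females and 6.94, 6.76 and 7.35 in the low females. The high males lay above the low males by these medians, by a narrow margin for the closest pair, and the females overlapped. Each median is the reading of a single gene of middle level, so it does not measure the set as a whole. In high replicates 2 and 3 and low replicates 1 and 3 that gene was KCNMA1. ACTG2 had another order, with 11.93, 10.83 and 10.76 in the high males and 10.58, 11.95 and 11.02 in the low males. High replicate 1 is the male at 7.48 and low replicate 6 the female at 7.35. With array weights the interaction was positive for 27 of 29, without high replicate 1 for 27 of 29 with a median of 0.363, and without low replicate 6 for 27 of 29 with a median of 0.403.

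Genes that act on smooth muscle from outside the filaments were read from the same lists for feed efficiency. No gene of any of the 19 lists passed. Of 13 measured genes of relaxation and second messengers 11 were higher in high pigs, with a median of 0.117, and 3 had an unadjusted p under 0.05, against backgrounds of 7.79% in either direction and 3.81% for genes higher in high pigs. These were GUCY1A3, part of the receptor for nitric oxide (0.77, SE 0.156), PDE3A, a phosphodiesterase of cyclic nucleotides (0.51, SE 0.114), and PRKG1, the kinase that cyclic GMP activates (0.50, SE 0.205). All 4 genes of interstitial cells of Cajal, the pacemakers of gut muscle, were higher, 3 at an unadjusted p under 0.05 against the same 3.81%: ETV1 (0.59, SE 0.132), KIT (0.65, SE 0.269) and PRKCQ (0.39, SE 0.177). ANO1, the remaining gene of this list, differed by 0.15 (SE 0.140). KIT also marks mast cells. The lists were chosen with earlier results of these data known, so their counts are not independent support.

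Of 26 filament partners 11 were higher, with a median of -0.03 and none at an unadjusted p under 0.05. For this and the counts at that p below, the background was 7.79% of all probe sets, or 3.81% for those higher in high pigs. Of 13 genes of calcium entry, release and uptake 6 were higher, and KCNMB4 was the 1 at an unadjusted p under 0.05 (-1.49, SE 0.629). Of 17 partners of SRF and MYOCD 9 were higher, and GATA4 was the 1 below that p (-0.24, SE 0.103). Of 19 adhesion genes 12 were higher and 5 had an unadjusted p under 0.05. Of these 5, LAMA2, a laminin chain of muscle basement membrane (0.50, SE 0.128), LAMB2 (0.47, SE 0.172) and ITGA9 (0.41, SE 0.186) were higher and SGCA (-0.55, SE 0.188) and CAV1 (-0.39, SE 0.158) lower. LAMA2 and, among the relaxation genes, PDE3A had no overlap between the classes, with high pigs above, against a background of 0.170%. NOS1, which makes the nitric oxide of enteric nerves, was lower in high pigs (-0.62, SE 0.241), and 2 of 6 enteric neuron genes were higher. Of 10 enterocyte genes 1 was higher and the median was -0.33. CDH17 (-0.61, SE 0.156) and ANPEP (-0.62, SE 0.239) of that list were lower at an unadjusted p under 0.05. Of 9 fibroblast genes 8 were higher with a median of 0.124. Higher in high pigs were 3 of 10 skeletal, 3 of 7 cardiac, 1 of 6 mural, 4 of 7 endothelial, 2 of 4 glial, 1 of 2 mesothelial, 2 of 5 goblet cell, 1 of 5 crypt and 1 of 4 leukocyte genes. In these lists MYLPF (-0.40, SE 0.130), TNNI2 (-0.30, SE 0.137) and CD3E (-0.47, SE 0.150) were lower and MCAM (0.43, SE 0.116) higher at an unadjusted p under 0.05. The part of these cell types in the members' differences was not tested.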

How the data were processed

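The values deposited by the authors are on a log2 scale, 1 for each probe set on each array. The arrays were Affymetrix Snowball arrays for pig, of 1 colour, hybridized with biotin-labelled DNA copied from total RNA, per the labels' protocols. The submitters' processing notes name GCOS 1.1.1; background correction, summarization and normalization: not given in the sources used here. Arrays have no read depth, and their number limits the precision. The table held 47845 probe sets: 123 controls were left out, 26426 of the others had 1 symbol, 0 several and 21296 none. Symbols were updated through the RefSeq gene table of Sscrofa11.1 for 446 probe sets; probes were not placed on a genome, so no coordinates or sequences are given.

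Probe sets with a mean above the 25th percentile, 2.29, were tested (35791, covering 12579 genes) with limma 3.58.1 in R 4.3.3 and Benjamini-Hochberg adjustment over all of them at 0.05: feed efficiency and sex in an additive model, the interaction and the differences within each sex from the 4 class and sex means. Correlations used two-sided permutation with 100000 resamples (Python 3.11.15), adjusted over the stated family (all 406 pairs for pairs of members). Values after ± are SD. Fits were tested on simulated data. The members and lists were chosen with earlier results of these data known. Named genes are all members, and from the lists or all genes those with the smallest p for feed efficiency or an extreme r; those named for their r with ACTG2 or CALD1, and RYR2's other probe sets, were named after their values were seen. Alternatives were quantile normalization, other filters, array weights, an intensity trend, no sex term, array spread as a covariate, the mean of a gene's probe sets, and each pig left out. Results for 1 list are not reported here, except 1 gene's r with ACTG2.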

Additional observations from a re-analysis of the deposited data

Results flagged for a closer look

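In 5 of 58 groups of 6 pigs (29 members in 2 classes), 1 pig stood apart from its class by a gap larger than 0.625 of the class range. Chance gives about 1 in 20 such groups. High replicate 1 was far above its class for SMTN, at 7.56 with the next pig at 6.75, and for FLNC, at 7.24 with the next at 6.47. High replicate 2 was far above for RYR2, at 6.25 with the next at 5.36, and high replicate 3 for MYOCD, at 4.91 with the next at 4.48. Low replicate 1 was far below for ITGA8, at 4.25 with the next at 4.70.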

How the results depend on the processing

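No member passed for feed efficiency, sex or the interaction under any alternative run. The count of members at an unadjusted p under 0.05 for feed efficiency, 2, was 4 with array weights, 1 with array spread as a covariate, and 2 to 5 with 1 pig left out (4 without high replicate 1, 5 without low replicate 6). For sex, 4 became 1 with array weights and 2 to 5 with 1 pig left out, and for the interaction, 4 became 2 to 5. The median over members ran from -0.08 to 0.107 for feed efficiency, from -0.10 to 0.112 for sex and from 0.363 to 0.639 for the interaction with 1 pig left out. Against MYH11 the passing count stayed at 0 and the median r at -0.32 to -0.19 with 1 pig left out; with ACTG2 as the reference, added later, 13 passed, 11 had an r of at least 0.7 and the median was 0.571, and with DES 11, 11 and 0.590. For ACTG2, 9 to 15 members passed, 10 to 14 reached 0.7 and the median was 0.417 to 0.658 with 1 pig left out. Array spread as a covariate moved single genes too: the feed efficiency difference of TAGLN was 0.43 and of MYL9 0.39 in that fit, and that of ITGA7 -0.63. The cause of these moves was not tested. CNN1 as the reference was not run, since it had no probe set by symbol. No paired analysis was possible because replicate numbers were given in accession order and tie no pigs together. With 6 pigs a class, small differences cannot be seen, and dim probe sets near 1.90 carry compressed ones.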
